A study of Mus musculus with 14 samples.

Results

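The genes described here encode the core of the mTOR kinase complexes and their best known regulators: Mtor, Rptor, Rictor, Mlst8, Deptor, Rheb, Tsc1, Tsc2, Eif4ebp1 and Rps6kb1. They were chosen by name, not by their values. All 10 are among the 52550 rows of the count table, and all 10 passed the expression filter, which left 16836 genes for testing.

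RNA was sequenced from 6 KPY-Ctrl and 8 KPY-Setd2KO lung adenocarcinomas of mixed B6J/129S4vJae mice. Tumors of both groups carried p53 flox/flox and a Rosa26 LSL-YFP reporter, and all of them arose after a lentivirus delivered Cas9, Cre and a guide RNA to the airways. The guide targeted beta-galactosidase in KPY-Ctrl tumors and Setd2, the methyltransferase that places H3K36me3, in KPY-Setd2KO tumors, so the controls also expressed Cas9 and had lost p53. The age of the mice at collection is not given per tumor in the sources used here. According to the study's methods, RNA came from live YFP-positive cells sorted from single dissected tumors, whereas the labels describe RNA from cell lines and other kits, a conflict that could not be settled here. The study states fewer mice than tumors, so some tumors shared a mouse. Each p-value below treats the tumors as independent.

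mTOR is a serine/threonine kinase that works in 2 complexes. In mTORC1 it binds Raptor, the product of Rptor, which presents substrates such as the translational repressor 4E-BP1 (Eif4ebp1) and the S6 kinase S6K1 (Rps6kb1). In mTORC2 it binds Rictor and acts on AKT. mLST8 belongs to both complexes, and DEPTOR binds mTOR as an inhibitor. The small GTPase RHEB switches mTORC1 on at the lysosome, and the TSC complex, built on TSC1 and TSC2, switches RHEB off. These are controls of protein activity and phosphorylation, which RNA counts do not measure.

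The total count per tumor ran between 27866266 and 51828846 in KPY-Ctrl and 20072236 to 40604404 in KPY-Setd2KO, and the 10 genes had between 122 counts (the lowest Mlst8 tumor) and 5339 counts (the highest Rictor tumor). Levels are given as CPM (counts scaled to a fixed library size) after TMM normalization. Setd2 itself (ENSMUSG00000044791.16), the targeted gene, averaged 52.9 ± 8.48 CPM (SD, n = 6) over KPY-Ctrl tumors and 31.6 ± 10.9 (n = 8) over KPY-Setd2KO tumors, with overlapping ranges, and edgeR gave a log2 fold change of -0.74 (SE 0.22) with an adjusted p of 0.175. The leukocyte marker score, the mean log2 CPM of 12 genes such as Ptprc, varied between 3.97 and 9.30 in KPY-Ctrl and 3.68 to 9.60 in KPY-Setd2KO. None of these markers was at 0 in either group, and their summed level lay between 581 and 10666 CPM in KPY-Ctrl and 296 to 15035 CPM in KPY-Setd2KO. Epithelial markers (10 genes, none at 0) summed to between 13701 and 61910 CPM in KPY-Ctrl and between 5775 and 49334 CPM in KPY-Setd2KO. Endothelial (6 genes), fibroblast (6) and erythroid (4) markers were lower, with sums of at most 52.8, 85.5 and 421 CPM in any tumor. In bulk RNA a smaller number of cells of one type cannot be told apart from less RNA of a gene per cell.

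Promoter windows were available from RefSeq (GRCm38.p6) for 8 of the 10 genes, without Deptor and Eif4ebp1. Those of Tsc2, the gene whose genotypes did not overlap, of Mtor and Rptor, which varied together, and of Rheb, which varied against them, are shown as the 250 bases before the RefSeq start, 5′ to 3′ on the strand of the gene. Capitals mark matches on either strand to any of 5 motifs. The first was the CCAAT box, searched by those letters. The GC box, which binds the Sp family of factors, was searched as GGGCGG. The E-box of basic helix-loop-helix factors was searched as CACGTG. The core of ETS factor sites was searched as CCGGAA. The cyclic AMP response element was searched as TGACGTCA. Adjacent or overlapping matches form a single run of capitals.
Tsc2 (chr17:24632628-24632877, minus strand): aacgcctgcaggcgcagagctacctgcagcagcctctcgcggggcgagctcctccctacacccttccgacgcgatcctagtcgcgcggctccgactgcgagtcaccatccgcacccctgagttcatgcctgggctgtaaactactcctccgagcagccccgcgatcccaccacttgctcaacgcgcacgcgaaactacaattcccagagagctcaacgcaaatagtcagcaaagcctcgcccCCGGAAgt
Mtor (chr4:148448332-148448581, plus strand): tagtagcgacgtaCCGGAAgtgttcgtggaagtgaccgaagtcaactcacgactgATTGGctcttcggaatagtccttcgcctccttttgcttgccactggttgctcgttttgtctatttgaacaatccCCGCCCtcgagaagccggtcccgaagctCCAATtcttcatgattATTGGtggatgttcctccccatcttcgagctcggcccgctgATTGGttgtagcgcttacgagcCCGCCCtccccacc
Rptor (chr11:119602655-119602904, plus strand): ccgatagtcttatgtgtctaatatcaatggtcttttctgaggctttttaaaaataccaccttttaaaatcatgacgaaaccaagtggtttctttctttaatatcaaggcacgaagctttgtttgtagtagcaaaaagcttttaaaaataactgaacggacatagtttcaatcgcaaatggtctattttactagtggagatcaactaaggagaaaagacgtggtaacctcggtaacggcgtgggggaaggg
Rheb (chr5:24842362-24842611, minus strand): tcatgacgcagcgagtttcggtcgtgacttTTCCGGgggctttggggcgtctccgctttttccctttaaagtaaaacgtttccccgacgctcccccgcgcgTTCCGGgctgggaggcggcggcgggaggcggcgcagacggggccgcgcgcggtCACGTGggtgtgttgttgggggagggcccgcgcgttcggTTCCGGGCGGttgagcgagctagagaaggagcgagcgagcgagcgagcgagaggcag
The Mtor window held 4 matches to CCAAT, 2 to GGGCGG and 1 to CCGGAA. Rptor had none of the 5 motifs in its window, and of the other 9 genes its RNA had the highest r with that of Mtor (0.92). Tsc2 had a single match, to CCGGAA, at the 3′ end of its window, whereas Rheb had 3 to CCGGAA, 1 to GGGCGG and 1 to CACGTG. Over the 8 windows, CCGGAA was found in 4 (Mtor, Rheb, Rictor and Tsc2) and in 12.03% of 32851 mouse windows of the same length. GGGCGG was in 3 (Mtor, Rheb and Rictor) and in 32.7% of all windows, CCAAT in 2 (Mtor and Rictor) and 33.8%, and CACGTG in 1 (Rheb) and 6.02%. No window of the 8 held TGACGTCA, which was in 1.55% of all. GC content ran from 37.6% (Rptor) to 81.2% (Rictor), against a median of 52.4% over all windows. These are matches of letters only.

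Corrected for length, Eif4ebp1 and Rheb were the most abundant of these transcripts. Per kilobase of merged exons, the mean level over all 14 tumors was 14.6 ± 4.29 CPM (SD) for Eif4ebp1 and 11.9 ± 2.46 for Rheb. These neighbors in the order differed by less than the spread between tumors, and their order turned when the length of the longest protein-coding transcript was used, which put Rheb at 51.4 and Eif4ebp1 at 16.04. Tsc2 came next at 5.82 ± 1.82, followed by Deptor at 4.12 ± 1.61 and Rps6kb1 at 3.86 ± 1.23. Rictor (2.77 ± 1.62), Mlst8 (2.66 ± 0.591) and Mtor (2.60 ± 1.32) lay within each other's spread. Rptor at 1.87 ± 0.593 and Tsc1 at 0.872 ± 0.270 were the lowest. With the longest protein-coding transcript Rptor, at 3.83, came above Mtor (3.07) and Mlst8 (3.06), Deptor (4.28) came below Rps6kb1 (6.04) and Rictor (5.03), and Tsc1 was again last. The catalytic subunit of both complexes was therefore near the middle of all genes tested, at percentile 46.1 of the same per-kilobase level, and Eif4ebp1 was at percentile 81.5. Between tumors, Rictor and Mtor varied most, with coefficients of variation of 58.7% and 51.0%, and Rheb and Mlst8 least, with 20.7% and 22.2%.

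**Figure D1:**
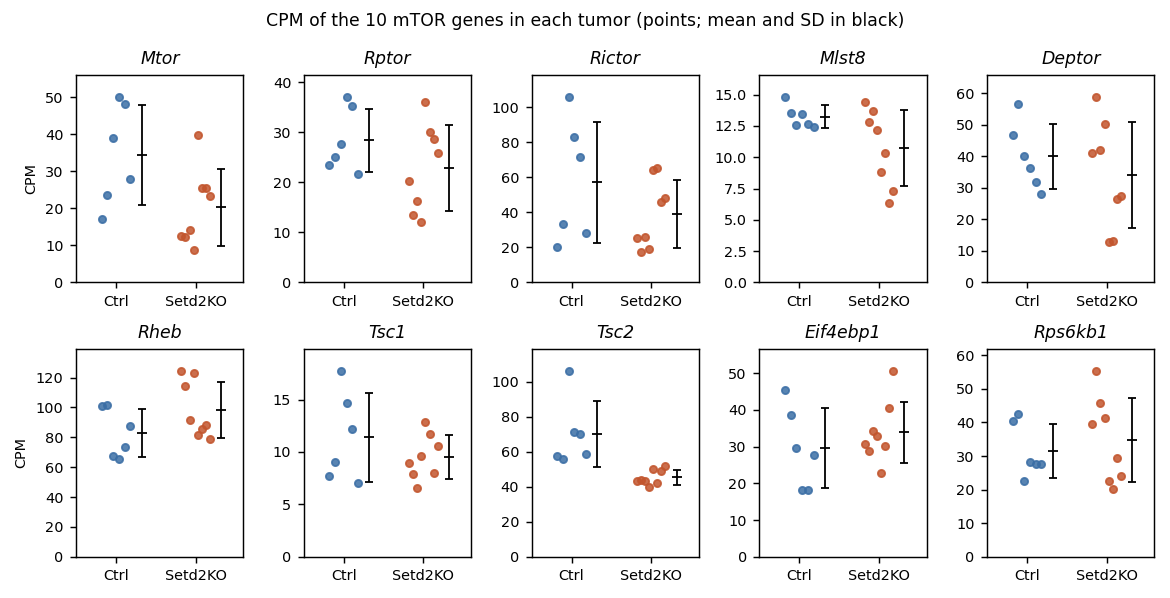
Normalized level (CPM, vertical axes from 0) of each of the 10 genes in KPY-Ctrl (n = 6, blue) and KPY-Setd2KO (n = 8, orange) tumors, with replicates in order from left to right and the mean and SD in black. The Tsc2 points of KPY-Setd2KO, at most 52.2 CPM, lie below all KPY-Ctrl points, which start at 55.7 CPM, whereas the points of the other 9 genes overlap.

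The question asked of each gene was whether its RNA differed between KPY-Setd2KO and KPY-Ctrl tumors. Tsc2 and Mtor had the lowest log2 fold changes among the 10, and both encode proteins at the center of the pathway, the RHEB inhibitor and the kinase itself. With genotype as the sole term, neither passed the threshold of edgeR's quasi-likelihood test. At an adjusted p under 0.05 this fit called 0 of the 10 genes, against 0% of the 16836 genes tested. At an unadjusted p under 0.05 it held 2 of the 10, both lower in KPY-Setd2KO, where 13.7% of all tested genes were under that value (6.93% higher and 6.8% lower in KPY-Setd2KO). Of the 10 log2 fold changes 7 were below 0, with a median of -0.28, while over all tested genes the median was 0.03 and 52.7% were above 0. DESeq2 called 1 of the 10 (Tsc2), where it called 3.7% of 18988 genes. edgeR with the leukocyte marker score added to the fit called 2 (Tsc2 and Mtor), where it called 5.66% of all genes. limma voom with sample quality weights called 7, where it called 49.5% of all genes, so that count is not particular to these genes. The 7 were Mtor, Rptor, Rictor, Rheb, Tsc1, Tsc2 and Eif4ebp1.

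Tsc2, on chromosome 17 (24595816-24632630, minus strand, GRCm38), encodes the subunit of the TSC complex that stimulates GTP hydrolysis by RHEB. In KPY-Ctrl tumors it ranged from 55.7 to 106 CPM with a median of 64.7, and in KPY-Setd2KO tumors from 40.1 to 52.2 CPM with a median of 43.6. Every KPY-Setd2KO tumor was thus below every KPY-Ctrl tumor, and the level was also more uniform there, with a mean of 45.4 ± 4.36 CPM (SD, n = 8) against 70.1 ± 18.9 (SD, n = 6) in KPY-Ctrl. Such a lack of overlap was found for 0.558% of the genes tested, and for 1 of the 10. The log2 fold change was -0.63 (SE 0.15, 95% interval -0.95 to -0.30), or 0.648-fold, with an unadjusted p of 0.00103 and an adjusted p of 0.129 in edgeR, the gene ranking 133 of all genes tested. The adjusted p was 0.0107 in DESeq2 and 0.0170 in edgeR with the leukocyte marker score, at log2 fold changes of -0.63 and -0.58, and it ran from 0.00173 to 0.433 over all 22 alternatives. KPY-Ctrl replicate 3, at 106 CPM, stood highest, and without it the log2 fold change was -0.48 with an adjusted p of 0.225 in edgeR. Tsc2 shares 693 exonic bases (7.20% of its exons) with Pkd1 on the opposite strand, and the strand setting of the quantification is not given in the sources used here. Pkd1 itself had a median of 20.5 CPM in KPY-Ctrl and 12.9 CPM in KPY-Setd2KO, with overlapping ranges (17.98 to 30.9 and 10.9 to 31.3), and its part in the Tsc2 count was not tested.

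Tsc1, the partner that stabilizes TSC2, is encoded on chromosome 2 (28641228-28691167, plus strand). It had 11.4 ± 4.23 CPM in KPY-Ctrl and 9.52 ± 2.11 CPM in KPY-Setd2KO, from 7.04 to 17.7 and from 6.53 to 12.9, with a log2 fold change of -0.26 (95% interval -0.76 to 0.24, adjusted p = 0.696, edgeR). The ranges overlapped, with KPY-Ctrl replicates 3 and 4 above every KPY-Setd2KO tumor. Without KPY-Ctrl replicate 3 the log2 fold change was -0.099.

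Rheb, on chromosome 5 (24802823-24842624, minus strand), encodes the GTPase that TSC2 inactivates. It lay between 65.3 and 102 CPM (median 80.7) in KPY-Ctrl and 78.6 to 124 CPM (median 90.1) in KPY-Setd2KO. The groups overlapped, and the log2 fold change of 0.25 (SE 0.17, 95% interval -0.11 to 0.60) had an adjusted p of 0.564 in edgeR.

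Mtor, on chromosome 4 (148448611-148557683, plus strand), had the largest difference in size. Its level was 34.3 ± 13.5 CPM in KPY-Ctrl, from 17.1 to 50.1 with a median of 33.4, and 20.2 ± 10.3 CPM in KPY-Setd2KO, from 8.76 to 39.8 with a median of 18.7. The ranges overlapped widely, and the level also differed strongly between tumors of one genotype. The log2 fold change was -0.76 (SE 0.34, 95% interval -1.50 to -0.02), or 0.590-fold, with an unadjusted p of 0.0437 and an adjusted p of 0.346 in edgeR. With the leukocyte marker score in the fit the log2 fold change was nearly the same, -0.74, but its SE was 0.15 in place of 0.34, and the adjusted p was 0.0171. DESeq2 on genotype alone gave an adjusted p of 0.267. limma voom with quality weights gave -1.54 (adjusted p = 0.00184), and over all 22 alternatives the adjusted p ran from that value to 0.640.

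The scaffold genes of the 2 complexes had lower means in KPY-Setd2KO as well, without passing the test. Rptor, the mTORC1 scaffold on chromosome 11 (119602905-119899576, plus strand), lay between 21.7 and 37.1 CPM (median 26.4) in KPY-Ctrl and 12.2 to 36.1 CPM (median 23.1) in KPY-Setd2KO, a log2 fold change of -0.31 (SE 0.25, adjusted p = 0.646, edgeR). Rictor, the mTORC2 scaffold on chromosome 15 (6708379-6800401, plus strand), ranged from 20.5 to 106 CPM (median 52.5) and from 17.6 to 65.4 CPM (median 35.9), a log2 fold change of -0.55 (SE 0.42, adjusted p = 0.621). Without KPY-Ctrl replicate 3, its highest tumor, this was -0.30, and limma voom with quality weights gave -1.29 for Rictor and -0.85 for Rptor. Rictor was the least even of the 10 genes, so its 95% interval of -1.45 to 0.34 leaves room for a difference as large as that of Mtor.

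Mlst8, the subunit common to both complexes, lies on chromosome 17 (24473551-24479078, minus strand), on the same chromosome and strand as Tsc2. It was nearly constant in KPY-Ctrl, between 12.4 and 14.8 CPM (13.2 ± 0.913, SD, n = 6), and ranged from 6.32 to 14.4 CPM in KPY-Setd2KO (10.7 ± 3.02, SD, n = 8). In KPY-Setd2KO replicates 5 to 8, all with a leukocyte marker score of at most 5.93, it was at most 10.4 CPM, below every KPY-Ctrl tumor. KPY-Setd2KO replicate 4, at 12.2 CPM, was also just below every KPY-Ctrl tumor. The log2 fold change was -0.30 (SE 0.19, 95% interval -0.72 to 0.11, adjusted p = 0.533, edgeR). Of its exonic bases 22.5% overlap Bricd5 on the opposite strand, but Bricd5 had at most 0.267 CPM in any tumor.

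Deptor, the gene of the mTOR inhibitor DEPTOR on chromosome 15 (55112317-55259271, plus strand), lay between 28.1 and 56.5 CPM in KPY-Ctrl (median 38.2), as against 12.8 to 58.8 CPM in KPY-Setd2KO (median 34.3). KPY-Setd2KO tumors held both the highest and the lowest value of the gene. The log2 fold change of -0.24 (SE 0.33, 95% interval -0.95 to 0.47) had an adjusted p of 0.828 in edgeR. A stretch of 270 bases of Deptor is 93.3% identical to the processed pseudogene Gm11902, so part of its count is uncertain. Deptor also shares 303 exonic bases (3.41% of its exons) with Gm9920 on the opposite strand, which had at most 2.55 CPM in any tumor. The part of Gm11902 and Gm9920 in the Deptor count was not tested.

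The genes of the substrates had slightly higher means in KPY-Setd2KO, within the spread between tumors. Eif4ebp1, on chromosome 8 (27260329-27276674, plus strand), encodes 4E-BP1, which binds eIF4E until mTORC1 phosphorylates it. It lay between 18.1 and 45.5 CPM in KPY-Ctrl (median 28.7), as against 22.9 to 50.6 CPM in KPY-Setd2KO (median 31.9), a log2 fold change of 0.19 (SE 0.23, 95% interval -0.31 to 0.69, adjusted p = 0.795, edgeR). A processed pseudogene, Gm14143, matches 357 of its bases at 93.3% identity. Rps6kb1, on chromosome 11 (86498871-86544805, minus strand), encodes S6K1. It ranged from 22.6 to 42.6 CPM (median 27.9) and from 20.1 to 55.3 CPM (median 34.5), a log2 fold change of 0.14 (SE 0.25, 95% interval -0.39 to 0.67, adjusted p = 0.869), and scaling by library size alone turned this to -0.033, with the median of all tested genes then at -0.11 in place of 0.03. Rps6kb1 shares 155 exonic bases (1.79% of its exons) with Rnft1 on the opposite strand. Rnft1 had a median of 41.2 CPM in KPY-Ctrl and 51.2 CPM in KPY-Setd2KO, with overlapping ranges. Its part in the Rps6kb1 count was not tested.

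**Figure D2:**
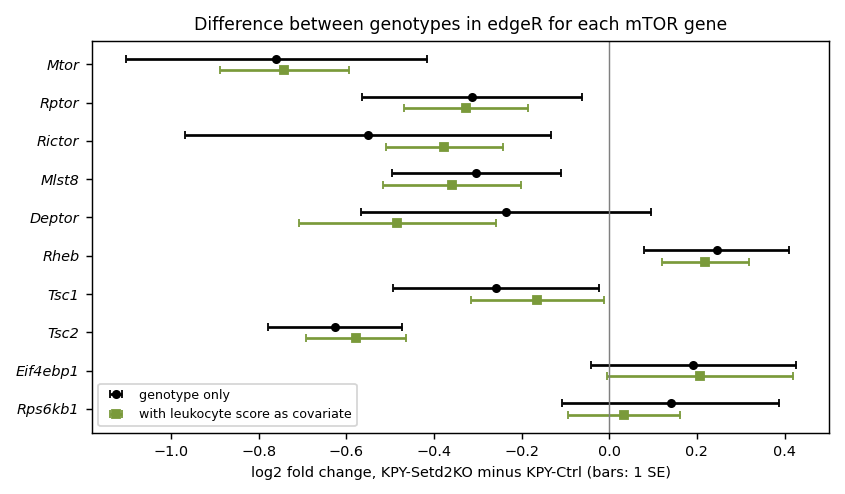
Log2 fold change of each gene (KPY-Setd2KO minus KPY-Ctrl, horizontal axis) from edgeR on genotype alone (black circles) and after the leukocyte marker score was added to it (green squares), with bars of 1 SE. Mtor (-0.76 and -0.74) and Tsc2 (-0.63 and -0.58) are the farthest below 0 in both fits, and the bar of Mtor is shorter in the second fit (0.15 against 0.34).

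For 7 of the 10 genes the level in a tumor followed the leukocyte marker score closely. Over the 14 tumors, Pearson's r of log2 CPM with that score was -0.94 for Rictor, -0.82 for Rptor, -0.81 for Mtor and -0.81 for Tsc1. For Tsc2 it was -0.48. It was 0.41 for Eif4ebp1, 0.49 for Mlst8, 0.72 for Deptor, 0.81 for Rheb and 0.89 for Rps6kb1. The transcripts of the kinase and of both scaffolds were higher where leukocyte markers were low. Those of the activator RHEB, the inhibitor DEPTOR and the substrate S6K1 were higher where those markers were high. Such relations were frequent in these libraries, since 32.1% of all tested genes had r under -0.5 and 31.1% over 0.5. That is near the 4 and 3 of the 10, so the split is not particular to these genes. Within genotype the coefficients kept their signs and ran from -0.96 (Rictor) to 0.89 (Rps6kb1). The points share libraries and the epithelial score, which had r = -0.90 with the leukocyte score, and the part of either cell type in these levels was not tested.

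**Figure D3:**
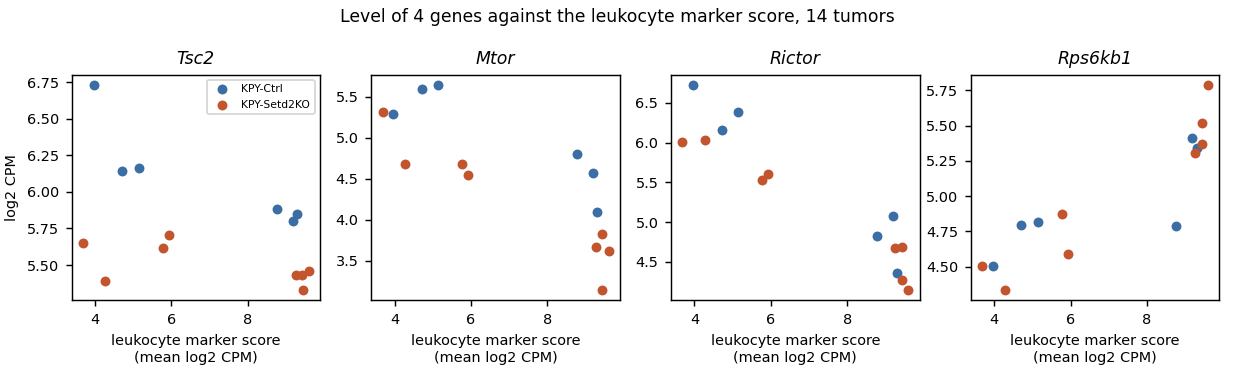
Log2 CPM of Tsc2, Mtor, Rictor and Rps6kb1 (vertical axes, which do not start at 0) against the leukocyte marker score (mean log2 CPM of 12 genes) in 6 KPY-Ctrl (blue) and 8 KPY-Setd2KO (orange) tumors. For Tsc2 all orange points lie below all blue ones, whatever the score, whereas Rictor (r = -0.94) and Rps6kb1 (r = 0.89) follow the score in both genotypes.

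The score had a wide gap, with 7 tumors between 3.68 and 5.93 and the other 7 between 8.77 and 9.60, and each side held 3 KPY-Ctrl and 4 KPY-Setd2KO tumors. The gap was seen in the data and its sides are not conditions, so the ranges are given without a test. With so few tumors a lack of overlap was frequent, in 26.8% of all tested genes at low score and 13.4% at high score, against 5 and 3 of the 10. Tsc2, among both the 5 and the 3, did not overlap over all tumors, so it could not overlap on either side. Among tumors of low score it was 70.4 to 106 CPM in KPY-Ctrl and 41.9 to 52.2 in KPY-Setd2KO. Among those of high score it was 55.7 to 59.0 and 40.1 to 44.0. Mtor was 39.0 to 50.1 CPM against 23.3 to 39.8 at low score, where 1 KPY-Setd2KO tumor reached the KPY-Ctrl range. At high score Mtor was 17.1 to 27.9 CPM in KPY-Ctrl and 8.76 to 14.1 in KPY-Setd2KO, without overlap. Rptor overlapped at low score (27.6 to 37.1 and 26.0 to 36.1 CPM) but not at high score (21.7 to 25.1 and 12.2 to 20.3 CPM). Rictor, Mlst8, Deptor and Rheb showed the reverse, with genotypes apart at low score only. For Deptor the low-score ranges were 31.97 to 40.2 CPM in KPY-Ctrl and 12.8 to 27.5 in KPY-Setd2KO, and for Mlst8 12.6 to 13.5 and 6.32 to 10.4. Rheb was 65.3 to 73.7 and 78.6 to 88.4 CPM there, the KPY-Setd2KO tumors being higher. Setd2 itself was 41.8 to 63.5 and 17.9 to 28.1 CPM at low score, and overlapped at high score (44.8 to 55.7 and 32.7 to 47.4 CPM).

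The genes formed blocks that varied together over the 14 tumors. Mtor had r = 0.92 with Rptor and 0.88 with Rictor, and Rptor had 0.85 with Rictor, so the kinase and both scaffolds varied together. Rictor also had r = 0.85 with Tsc1. Rheb ran against them, with r = -0.91 with Mtor and -0.89 with Rictor. Deptor and Rps6kb1 had r = 0.81 with each other and -0.54 and -0.84 with Rictor. Mlst8 had r = -0.21 with Mtor, -0.31 with Rptor and -0.31 with Rictor, and 0.58 with Deptor. Within genotype its r was -0.64 with Mtor and -0.61 with Rptor. Of the 45 pairs 21 were positive. All these coefficients share the same libraries and their leukocyte scores, and carry no test.

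**Figure D4:**
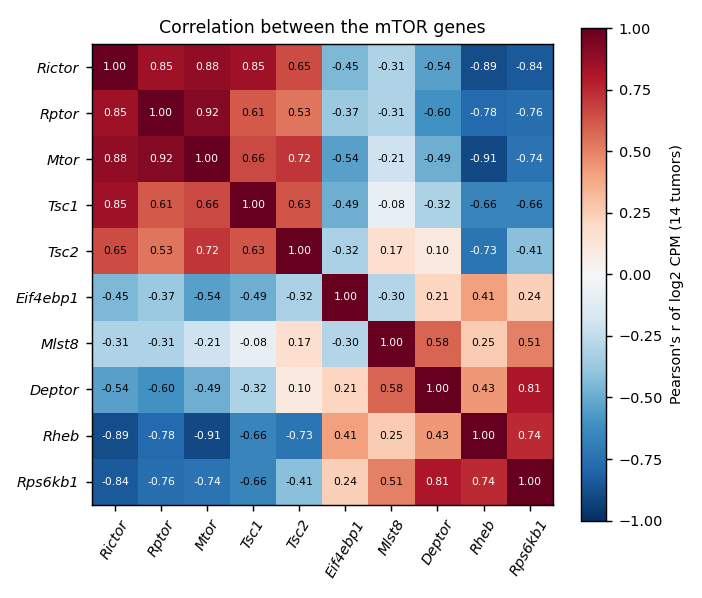
Pearson's r of log2 CPM between the 10 genes over 14 tumors, with both axes ordered by r with the leukocyte marker score and color from -1 (blue) to 1 (red). Rictor, Rptor, Mtor, Tsc1 and Tsc2 form a positive block at the upper left, and Rheb and Rps6kb1 are negative with each of them.

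Among 12150 candidate genes, those most like each of the 10 over the 14 tumors were named by the highest r of log2 CPM. Mtor was closest to Gm43197 and Taf2 (r = 0.98 for both). Rptor was nearest to Spry4 and Igf1r (both 0.97) and Rictor to Sfxn5 and Igf2r (both 0.98). For Tsc2 they were Cpn1 (0.94) and Tmem62 (0.93), and for Tsc1 Rnf19a (0.97) and Ranbp10 (0.95). Rheb was most like Ppp1r2 (0.96) and Akirin1 (0.95), Mlst8 most like Slc35d2 and Poglut1 (both 0.96), and Deptor most like Gga2 (0.95) and Rfx7 (0.93). Rps6kb1 followed Cisd2 (0.97) and Dtx4 (0.96). Eif4ebp1 had the weakest likeness, to Rpl23a (0.87), a protein of the large ribosomal subunit, and Htra2 (0.86). These are the highest of 12150 coefficients for each gene and carry no test. Of all tested genes, 32.1% had r under -0.5 with the leukocyte score and 31.1% over 0.5.

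Opposing regulators were then compared as ratios of counts within each tumor, which do not depend on the scaling of libraries. The ratios are not corrected for gene length and are compared between genotypes only. The ratio of Rheb to Tsc2, the mTORC1 activator against its inhibitor, ran between 0.638 and 1.83 in KPY-Ctrl (median 1.27), as against 1.51 to 3.06 in KPY-Setd2KO (median 2.08). The mean log2 ratio was 0.26 ± 0.60 (SD, n = 6) and 1.10 ± 0.38 (SD, n = 8), a difference of 0.84 or 1.79-fold, with an exact permutation p of 0.00599 (two-sided, 3003 assignments of the tumors) and 0.0360 adjusted over 6 ratios. KPY-Ctrl replicates 1 and 2, both of high leukocyte score, reached the KPY-Setd2KO range, and the log2 ratio had r = 0.67 with that score. The adjusted p was above 0.05 when any of 9 of the 14 tumors was left out (KPY-Ctrl replicates 3, 4, 5 and 6 and KPY-Setd2KO replicates 1, 2, 4, 6 and 7), with differences from 0.66 to 0.90 and adjusted p-values from 0.0513 to 0.0979. Over all 17 alternatives it ran from 0.00400, with the leukocyte score removed by regression, to 0.188, in a sign-flip test of same-numbered tumors as pairs. With 6 pairs that test could give no lower adjusted p to a ratio unless other ratios also had small p-values. The ratio of Tsc1 to Tsc2 ran between 0.119 and 0.205 in KPY-Ctrl and 0.152 to 0.280 in KPY-Setd2KO, a log2 difference of 0.39 (exact permutation p = 0.0356, adjusted p = 0.107). Without KPY-Setd2KO replicate 3 its adjusted p was 0.0490, and with the leukocyte score removed by regression 0.0320. Both ratios have Tsc2 as the denominator. In edgeR the log2 fold change was -0.63 for Tsc2, 0.25 for Rheb and -0.26 for Tsc1. The 2 ratios are therefore not independent of each other or of the Tsc2 difference given above.

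The other 4 ratios did not pass either value. Eif4ebp1 to Eif4ebp2, a second 4E-BP gene, differed by 0.53 on the log2 scale (exact permutation p = 0.0789, adjusted p = 0.158). Eif4ebp1 to Eif4e, the cap-binding protein it holds, differed by 0.31 (exact permutation p = 0.252, adjusted p = 0.378). Deptor to Mtor differed by 0.43 (exact permutation p = 0.542, adjusted p = 0.651) and spanned 0.322 to 5.73 within KPY-Setd2KO alone, with r = 0.89 with the leukocyte score. Rptor to Rictor, mTORC1 against mTORC2 scaffold, differed by 0.09 (exact permutation p = 0.760, adjusted p = 0.760), and without KPY-Ctrl replicate 3 by -0.14.

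**Figure D5:**
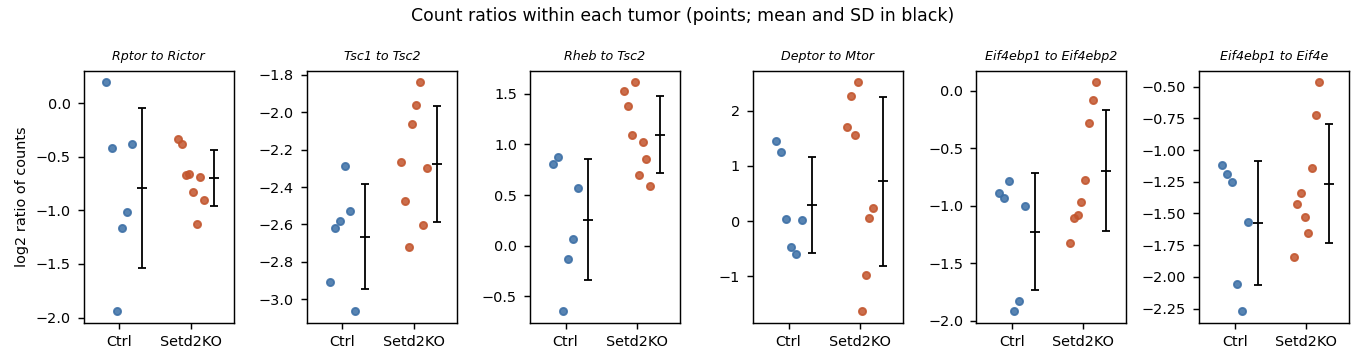
Log2 ratio of counts of the named gene pairs in each KPY-Ctrl (n = 6, blue) and KPY-Setd2KO (n = 8, orange) tumor, with the mean and SD in black. The mean Rheb to Tsc2 ratio is 0.84 higher in KPY-Setd2KO on the log2 scale, while the Rptor to Rictor means differ by 0.09.

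The rest of the pathway was described by 6 lists of genes, none of which had a gene called by edgeR, by DESeq2 or with the leukocyte covariate. Of 29 genes of lysosomal nutrient sensing, 5 had an unadjusted p under 0.05 in edgeR, and all 5 were lower in KPY-Setd2KO, with a median log2 fold change of -0.16 over the list. That is 17.2% of the list, near the 13.7% of all tested genes. Sesn3, a sestrin that restrains mTORC1, had the largest difference, between 11.8 and 91.8 CPM in KPY-Ctrl and 8.30 to 31.4 CPM in KPY-Setd2KO (log2 fold change -1.23, SE 0.43, adjusted p = 0.232). Kptn, a subunit of the KICSTOR complex, had 7.85 ± 0.890 and 5.86 ± 1.05 CPM (log2 fold change -0.42, adjusted p = 0.284). The other 3, named after their values were seen, were Depdc5 (-0.44) of GATOR1, Wdr24 (-0.40) of GATOR2 and Flcn (-0.52), the folliculin gene. The 5 therefore include inhibitors (Sesn3, Kptn, Depdc5) and activators (Wdr24, Flcn) of mTORC1.

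Among 15 genes of growth factor input, 1 had an unadjusted p under 0.05, or 6.67% against 13.7% of all tested genes. Ddit4, which encodes the stress-induced mTORC1 inhibitor REDD1, lay between 12.8 and 27.9 CPM in KPY-Ctrl and 13.6 to 67.8 CPM in KPY-Setd2KO (log2 fold change 0.84, SE 0.37, adjusted p = 0.337, edgeR). Its 4 highest tumors were KPY-Setd2KO replicates 5 to 8, all of low leukocyte score. Gsk3b came second in that list at -0.24 (adjusted p = 0.566).

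Of 21 genes known to rise with mTORC1 activity, 2 were under an unadjusted p of 0.05, both lower in KPY-Setd2KO, which is 9.52% of the list against 13.7% of all tested genes, and 10 of 21 log2 fold changes were above 0. Psat1, of serine synthesis, lay between 74.5 and 179 CPM in KPY-Ctrl and 32.8 to 96.0 CPM in KPY-Setd2KO (log2 fold change -0.84, SE 0.26, adjusted p = 0.178, edgeR). Mthfd2, of mitochondrial folate metabolism, had 56.1 ± 7.97 and 37.9 ± 14.2 CPM (log2 fold change -0.57, SE 0.23, adjusted p = 0.283).

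The remaining lists held 0 genes under an unadjusted p of 0.05. For 9 accessory and assembly genes the median log2 fold change was -0.08, with Tti1 (-0.48) and Telo2 (-0.31), which help the kinase fold, having the smallest p-values. For 14 translation effectors it was -0.05, led by Eif4ebp3 (1.44, at most 8.50 CPM in any tumor) and Rps6kb2 (0.38), the paralog of Rps6kb1. For 9 other substrates it was 0.06, and the autophagy genes Ulk1 (-0.30) and Atg13 (-0.30) had the smallest p-values, with adjusted p-values of 0.560 and 0.567 in edgeR.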

How the data were processed

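The authors quantified single-end reads with Salmon 0.8.2 against GRCm38.p5 and deposited the estimated counts, rounded to whole numbers and not normalized, for each Ensembl gene. The annotation release and strand setting are not given in the sources used here. Symbols, exons and coordinates were taken from GENCODE M21. The CPM, log2 and fold values were computed here from the deposited counts. edgeR 4.0.16 (R 4.3.3; TMM, expression filter, robust quasi-likelihood test on genotype, Benjamini-Hochberg adjustment over all genes tested) was the main test, called at an adjusted p under 0.05, with DESeq2 1.42.0 and limma 3.58.1 as alternatives. DESeq2 is the tool of the study's methods. log2 CPM used a prior count of 2, and ratios a pseudocount of 0.5. Ratios were compared by exact permutation in Python 3.11.15, without account of shared mice. The 10 genes were taken by name from the pathway that the study links to Setd2 loss, not by their values. They, the lists, the ratios and the tests were chosen with earlier results of these data known. The list comparisons are no independent evidence. Named genes were the 10, Setd2, the 2 genes of smallest p in each list and, as most alike, the 2 of highest r with each gene among those with a mean log2 CPM of at least 1. The labels state no pairing of same-numbered replicates, and the main fit used none. Correlations of their deviations ran from -0.66 to 0.66, which does not settle the question. No tumors had identical counts. A further allele that both groups share is not reported here. Intervals at 95% and SEs reflect the spread between tumors, and tumors that shared a mouse may not be independent.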

Additional observations from a re-analysis of the deposited data

Results flagged for a closer look

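Of 58 groups of values examined for a tumor far from the others of its genotype, 1 was found. Independent groups of normal values would give about 1 in 20. These groups share tumors and some share genes, so their own rate by chance is not known. Eif4ebp3, a low-abundance relative of Eif4ebp1, was at -1.51 log2 CPM in KPY-Setd2KO replicate 1, where the other 7 KPY-Setd2KO tumors ranged from 1.16 to 3.10. The gap to the nearest tumor was 0.579 of the range of the group, above Dixon's critical value of 0.526 for 8 samples. The value rests on 8 counts. It lay within the range of KPY-Ctrl tumors, from -4.19 (replicate 2, with 0 counts) to 1.86 log2 CPM (replicate 6).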

How the results depend on the processing

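Tsc2, Mtor, Rptor, Rictor, Mlst8 and Tsc1 were lower, and Rheb and Eif4ebp1 higher, in KPY-Setd2KO under all 22 alternatives, and the exceptions were Deptor (0.082 with limma voom and quality weights) and Rps6kb1 (-0.033 with library size only). None of these alternatives split the tumors at the gap in the leukocyte score. Between tumors of low and high score the mean log2 difference changed sign for Eif4ebp1 (0.69 and -0.21) and Tsc1 (-0.47 and 0.05). It also did so for Deptor (-0.94 and 0.17) and Rps6kb1 (-0.13 and 0.32), and none of this was tested. Of the 10 genes, DESeq2 called 1, the leukocyte covariate 2 and limma voom with quality weights 7, against 0 in edgeR on genotype alone. For all genes these fits called 702 (3.7%), 953 (5.66%) and 8340 (49.5%). limma voom also called 3 of 9 accessory, 17 of 29 lysosomal and 7 of 15 growth factor genes. It called 5 of 14 translation, 6 of 9 substrate and 9 of 21 mTORC1-raised genes. Set against its 49.5% of all genes, these counts are not a result about the lists. The cause of these differences between tools was not tested. Setd2 passed with limma voom (-0.75, adjusted p = 0.00501) and with the leukocyte covariate (-0.83, adjusted p = 0.0258). Leaving out single tumors gave between 0 and 1 genes called in edgeR (1 without KPY-Ctrl replicate 6) and 0 of the 10. The Rheb to Tsc2 difference ran from 0.66 to 0.96 over these fits, Tsc1 to Tsc2 from 0.31 to 0.46 and Rptor to Rictor from -0.14 to 0.29. After removal of the leukocyte score, Tsc1 to Tsc2 passed (0.41, adjusted p = 0.0320). The labels do not state whether tumors of the same number are paired. With the replicate block in edgeR, 0 genes were called, and Tsc2 had a log2 fold change of -0.65 with an adjusted p of 0.433. For Rheb to Tsc2 this setting was a sign-flip test of 6 same-numbered pairs, and it did not pass (0.97, adjusted p = 0.188). KPY-Setd2KO was higher in every pair, so the p was the smallest that 6 pairs allow. A single ratio at that p cannot pass adjustment over 6 ratios, so this setting could not decide. The lowest count of the 10 genes in any tumor was 122, and counting error was not separated from the spread between tumors.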
